A study of Mus musculus with 4 samples.

Results

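OL-like tumor cells, that is tumor cells carrying oligodendrocyte lineage RNA, were compared with normal mature oligodendrocytes (OL) from the same tissue samples. The samples came from a mouse model of high-grade glioma driven by MYCN (HGG-MYCN). Cells were chosen one by one on measured values. All cells had less than 25% mitochondrial unique molecular identifiers (UMIs, which tag single mRNA molecules) and 1000 to 40000 UMIs. An OL-like tumor cell held at least 2 UMIs of the transgene reporters human MYCN and firefly luciferase (FLUC), at least 3 different genes of Bcas1, Olig1, Olig2, Sox10, Cldn11 and Cnp, and at most 1 of Stmn2, Neurod1 and Stmn3. A normal oligodendrocyte held no reporter UMI, at least 2 UMIs of Mal, at least 1 of Mog, and at least 2 of the genes Ermn, Mag and Mobp. Of 11834 barcodes, 9185 were within the limits, 3146 of them were OL-like tumor cells and 265 were normal oligodendrocytes.

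The 4 tumors came from hGFAP-cre::TP53Fl/Fl::lsl-MYCN mice. The animals called mouse 4 and mouse 5 were taken at 43 days of age, and those called mouse 6 and mouse 7 at 70 days. In all 4 mice, Cre recombinase under the human GFAP promoter, active from radial glia of the embryo onwards, deletes floxed Trp53 and removes a stop cassette before human MYCN and FLUC in the Rosa26 locus. Normal oligodendrocytes therefore share the germline alleles of the tumor cells and differ by lacking reporter RNA, and no mouse without the alleles was analysed here. Each animal gave 1 library of dissociated cells, from which dead cells had been removed by sorting. The paper gives the source as olfactory bulb/tumor tissue. Radial glia also give rise to normal glia, so absence of reporter RNA does not show that a cell never recombined its alleles.

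Oligodendrocytes wrap axons of the brain in myelin, a stack of lipid-rich membrane held together by proteins such as Mbp. They arise from dividing precursor cells, which leave the cell cycle, pass through a short premyelinating stage and then switch on myelin genes under transcription factors such as Sox10 and Myrf. The MYC family protein MYCN regulates transcription and is known for raising genes of ribosome production, nucleotide synthesis and cell division, and p53, encoded by Trp53, is known for arresting cells with damaged DNA.

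Mice 4, 5 and 7 held 511, 222 and 2079 OL-like tumor cells next to 183, 50 and 32 normal oligodendrocytes. Mouse 6 held 334 OL-like tumor cells and 0 normal oligodendrocytes and entered no comparison. Counts were summed per mouse and side, to 7168802, 4855608 and 27219652 UMIs for the tumor cells and 957647, 610922 and 167147 UMIs for the normal cells of mice 4, 5 and 7. A value in CPM (UMIs per 1000000 UMIs) is a share of such a sum. In the normal cells of mouse 7, 3 UMIs are worth 17.9 CPM, against 3.13 in mouse 4 and 4.91 in mouse 5, so low values of that sum carry the largest counting error. Barcodes of the tumor side held more UMIs, with a median of 8085, 24216 and 12107 against 2053, 11670 and 5734.5 on the normal side. The tumor gate asks for reporter UMIs and the normal gate for none, so depth is not independent of the rule. No barcode of either side was shared between libraries. RNA of the Y chromosome went against 2 sex labels. Mouse 4, labelled female, held 119.8 CPM of 4 Y genes in its tumor cells and 211 CPM in its normal cells, and mouse 5, labelled male, held 0.206 and 0 CPM. Both are of the same age and each comparison was made within a mouse.

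The gates left neighbours just outside them. In mouse 4, 976 cells met the rest of the tumor gate, of which 298 held no reporter UMI, 167 held 1 and, just inside the limit, 113 held 2. In mouse 5 these were 59, 23 and 7 of 304 cells, and in mouse 7 they were 121, 124 and 83 of 2324. Just outside the lineage limit, 81, 7 and 63 reporter cells of mice 4, 5 and 7 held 2 of the 6 lineage genes, against 118, 10 and 124 tumor cells with exactly 3. On the normal side, 30, 1 and 4 cells held exactly 1 UMI of Mog. Cells meeting the Mal and Mog part of the normal gate held 0, 1 and at least 2 reporter UMIs in 183, 29 and 42 cases in mouse 4, in 50, 17 and 63 cases in mouse 5, and in 32, 46 and 333 cases in mouse 7. At the reporter level of tumor cells that met that part, a normal cell of median depth would have held 1.77 reporter UMIs in mouse 4, 31.6 in mouse 5 and 6.91 in mouse 7. By this measure, absence of reporter UMIs separated the sides least in mouse 4. The level comes from cells chosen for at least 2 reporter UMIs, so these expected values may be too high. Of the 3 mice, only mouse 7 had fewer cells with 0 reporter UMIs than with 1 (32 against 46). How many tumor cells entered the normal side was not tested.

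The genes of the gates are given as a description. In the tumor cells of mice 4, 5 and 7, FLUC was at 729, 1896 and 1091 CPM and human MYCN at 262, 1282 and 699 CPM, and both are at 0 in normal cells by the rule. Mal, a protein of myelin membrane rafts, was at 407, 297 and 181 CPM in tumor cells against 13082, 11659 and 2597 CPM in normal cells. Mog, a late marker on the outer myelin surface, was at 42.1, 72.3 and 50.4 CPM against 2558, 2334 and 1113 CPM. The lineage transcription factors were closer. Sox10 was at 203, 231 and 222 CPM in tumor cells and 291, 322 and 275 CPM in normal cells. Olig2 was at 96.9, 129 and 179 CPM against 105, 182 and 149.6 CPM. Bcas1, a gene of early myelinating cells, was at 405, 361 and 555 CPM against 391, 339 and 838 CPM. Mature oligodendrocyte markers outside the gates (Mbp, Opalin, Aspa and Hapln2) were all detected in the normal cells of each mouse. They were also detected, at lower levels, in the tumor cells of each mouse, and they are not independent of the normal gate.

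Other cell types left RNA on both sides. The summed level of 6 endothelial markers was 158, 327 and 0 CPM in the normal cells of mice 4, 5 and 7 and 65.8, 41.2 and 24.5 CPM in their tumor cells, with all 6 markers seen in the normal cells of mice 4 and 5 and none in mouse 7. Mural markers summed to 187, 4.91 and 0 CPM in normal cells and 56.1, 14.8 and 1.25 CPM in tumor cells, with all 6 seen in normal cells of mouse 4. Astrocyte markers summed to 64.7, 98.2 and 17.9 CPM in normal cells and 98.8, 87.3 and 75.3 CPM in tumor cells. Neuron markers summed to 89.8, 0 and 23.9 CPM in normal cells and 8.09, 5.35 and 5.29 CPM in tumor cells, and 3 of 7 were seen in normal cells of mouse 4. Myeloid markers stayed at 20.02 CPM or less in all 6 sums, whereas myeloid cells of these libraries (no reporter UMI and at least 3 of C1qa, C1qb, C1qc, Csf1r and Tyrobp) held at least 20326 CPM of them. Their part in the results was not tested. Without cells of either side that held at least 2 UMIs of vascular or immune markers, 2284 genes were higher and 1920 lower, against 2366 and 2006 with all cells. Without normal cells holding at least 2 neuron UMIs there were 2359 and 2000. That limit left 166 of 183 normal cells in mouse 4 and all 50 and 32 in mice 5 and 7. The median of the immature neural and oncofetal genes went from 0.61 to 2.15 and 2.12 in these fits, with 8 and 7 of 15 higher against 7.

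Outside the 16 gate genes, 10316 genes were tested on the paired sums (edgeR quasi-likelihood test with the mouse as a block, Benjamini-Hochberg adjustment over all genes tested, limit 0.05). Of these, 2366 genes (22.9%) were higher and 2006 (19.4%) were lower in tumor cells, and these shares are the background for every list below. The difference exceeded 2-fold in 1924 of the higher and 1635 of the lower genes. All 3 mice had the same sign in 2322 of the higher and 1871 of the lower genes, and the 3 tumor and 3 normal values did not overlap in 2145 and 1723. Most called genes thus had no overlap, so in the lists below a lack of overlap adds little to a call. The median log2 fold change over all genes tested was 0.12. Of the higher and lower genes, 0 were called in the opposite direction when any one mouse was left out. Because the normal gate asks for late myelin genes and the tumor gate does not, genes that change as oligodendrocytes mature are not independent of the rule. In what follows, fold changes are tumor over normal on the log2 scale with ± the standard error, and levels are given for mice 4, 5 and 7 in this order. With 3 mice, leaving out mouse 4 left 1375 higher and 1224 lower genes, leaving out mouse 5 left 1512 and 1432, and leaving out mouse 7 gave 2646 and 2268.

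**Figure D1:**
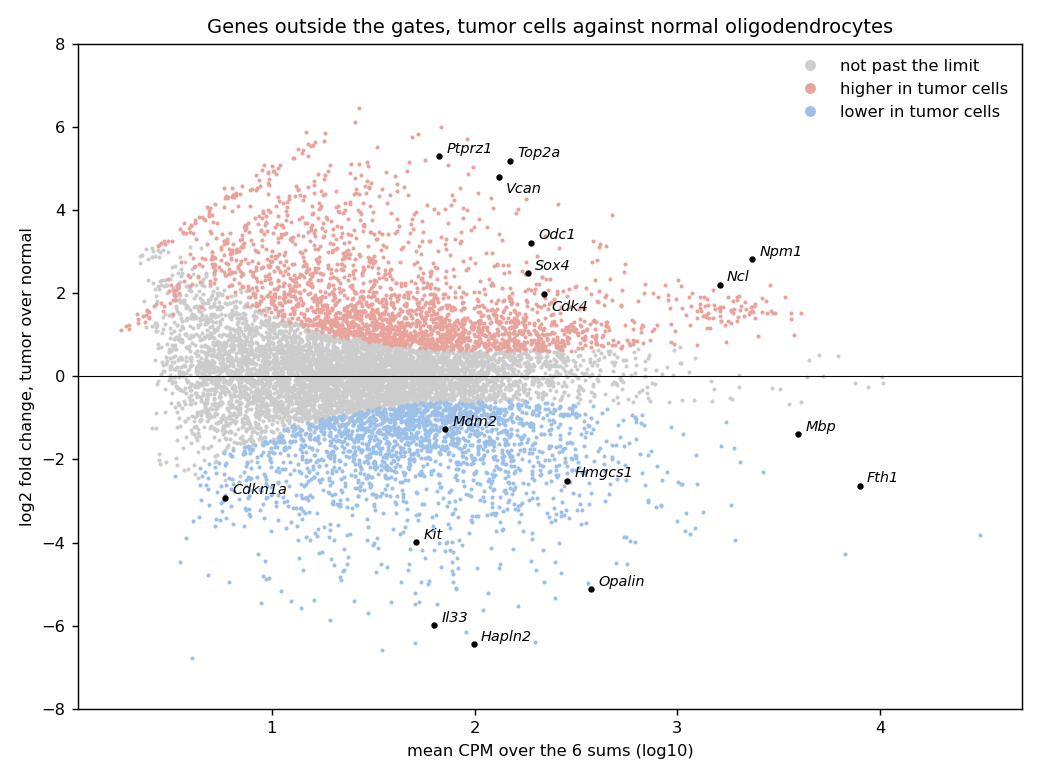
Log2 fold change of tumor over normal cells (vertical axis) against the mean CPM over the 6 sums (horizontal axis, log10) for 10316 genes, red where higher and blue where lower at an adjusted p under 0.05. Genes at 0 in every normal sum are drawn at the bound that 3 counts over the group allow, Npm1 and Ncl lie high among the abundant genes, and Fth1 and Mbp lie low.

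**Figure D2:**
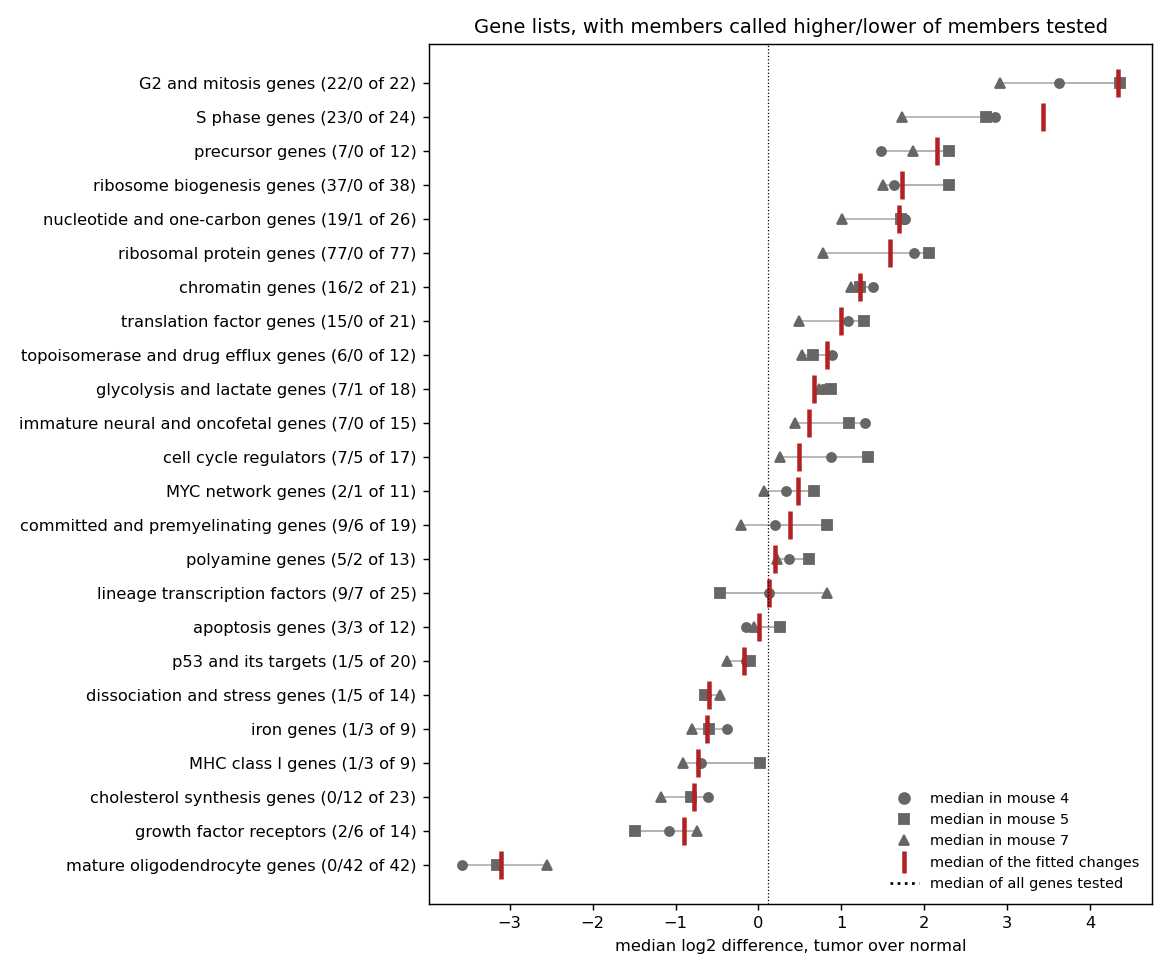
Median log2 difference per gene list (rows), with symbols for the median in mice 4, 5 and 7, a red bar for the median of the fitted changes and a dotted line for the median of all genes tested (0.12). The numbers in brackets count members higher and lower out of those tested, from 22 and 0 of 22 for G2 and mitosis genes to 0 and 42 of 42 for mature oligodendrocyte genes.

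Genes of oligodendrocyte precursor cells were partly higher in tumor cells. Of 18 listed genes 12 passed the filter on low counts, of which 7 were higher, 0 were lower, and the median log2 fold change was 2.15. Ptprz1, a receptor phosphatase of precursors and radial glia, was at 109.8, 148 and 123 CPM in tumor cells and 2.09, 0 and 17.9 CPM in normal cells (5.30 ± 0.56, adjusted p = 1.54e-05). Vcan, a matrix proteoglycan of precursors, was at 314, 231 and 208 CPM against 11.5, 1.64 and 23.9 CPM (4.81 ± 0.44, adjusted p = 5.23e-06). Each tumor value of both genes lay above each normal value. Fabp7, a fatty acid binding protein of radial glia and precursors, was at 148, 125 and 191 CPM against 24, 18 and 17.9 CPM (2.78 ± 0.29, adjusted p = 1.27e-05). Tnr and Neu4 also rose, by 3.47 and 2.75. Without one mouse at a time, the change of Ptprz1 ranged from 4.46 to 6.56, that of Tnr from 2.99 to 4.11 and that of Neu4 from 2.30 to 3.92. Without mouse 4, 10 of 14 precursor genes tested were higher, and without mouse 5, 5 of 11 were. The defining receptor of precursors varied between tumors, from nearly missing in mouse 4 to its highest level in mouse 5. Pdgfra was at 0.139, 27.2 and 5.47 CPM in tumor cells, at 0 in all 3 normal sums, and too low to be tested, and Cspg4 (NG2) was at 6, 15.9 and 8.41 CPM against 7.31, 4.91 and 0 CPM (0.75 ± 0.67, adjusted p = 0.392). Sox2, a factor of neural stem and precursor cells, was at 100.4, 102 and 100.4 CPM in tumor cells and 100.2, 134 and 138 CPM in normal cells (-0.30 ± 0.23, adjusted p = 0.319).

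Genes of committed and premyelinating cells went in both directions, with 9 higher and 6 lower of 19 tested and a median of 0.39. Tcf7l2, a transcription factor that marks newly formed oligodendrocytes, was at 145, 292 and 167 CPM in tumor cells and 36.5, 55.7 and 12 CPM in normal cells (2.35 ± 0.30, adjusted p = 5.56e-05), without overlap. Bmp4, a secreted factor of committed precursors, was at 128, 120.5 and 117 CPM against 14.6, 0 and 53.8 CPM (3.08 ± 0.56, adjusted p = 0.000749). Gpr17, a receptor transiently made on the way to myelination, was at 112, 97.2 and 97.1 CPM against 33.4, 36 and 108 CPM (1.06 ± 0.33, adjusted p = 0.0204). The rise in Gpr17 came from mice 4 and 5, and in mouse 7 the normal cells held slightly more. Enpp6, an early marker of myelin formation, was at 166, 192 and 226 CPM against 150.4, 98.2 and 329 CPM and did not pass the test (0.16 ± 0.28, adjusted p = 0.685). Members that fell included Nfasc, which builds the paranodal junctions of myelin (-1.79 ± 0.27), Cd9, a tetraspanin of myelin (-2.06 ± 0.28), and Sema4d (-2.98 ± 0.28). Genes that change as oligodendrocytes mature are not independent of the normal gate, so these falls are given as a description. Without mouse 5, 2 members were higher, and without mouse 4, 7 were. Gpr17 lost its call without mouse 4 (0.66, adjusted p = 0.221) and without mouse 5 (0.89, adjusted p = 0.0649), and the change of Bmp4 ranged from 2.29 to 3.90.

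**Figure D3:**
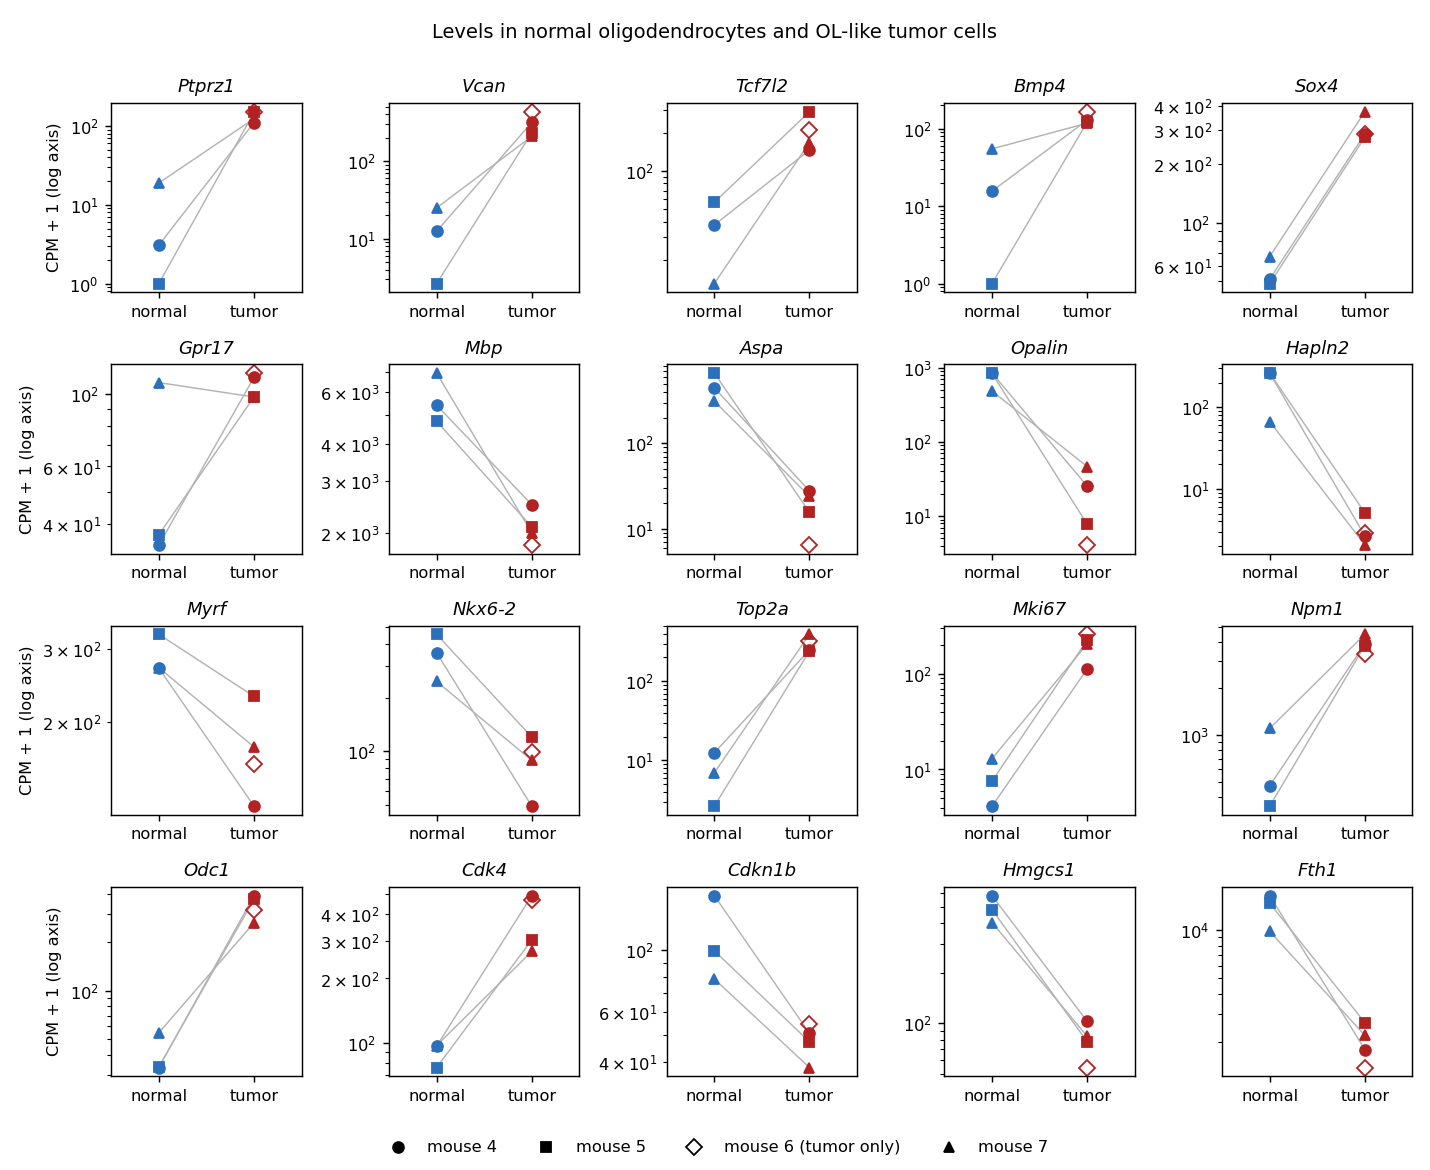
Levels as CPM + 1 on log axes in normal oligodendrocytes (blue) and OL-like tumor cells (red) of mice 4, 5 and 7, joined within a mouse, with the tumor cells of mouse 6 as open symbols. Ptprz1, Vcan, Tcf7l2, Sox4, Top2a, Mki67, Npm1, Odc1 and Cdk4 are higher in tumor cells of each mouse, and Aspa, Opalin, Hapln2, Nkx6-2, Hmgcs1 and Fth1 are lower in each.

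Lineage transcription factors also split. Of 25 tested, 9 were higher, 7 were lower and the median was 0.13. Higher were members of the SOX family that act in immature cells. Sox4 was at 285, 274 and 372 CPM in tumor cells and 50.1, 47.5 and 65.8 CPM in normal cells (2.48 ± 0.25, adjusted p = 1.1e-05), and Sox11 was at 49.7, 38.7 and 95.4 CPM against 1.04, 0 and 17.9 CPM (4.35 ± 0.58, adjusted p = 8.16e-05). No normal value reached a tumor value for either gene. Sox6 (4.38 ± 0.64, adjusted p = 0.000162), Sox3 (4.52 ± 0.96, adjusted p = 0.00216) and the Notch targets Hes5 (4.20 ± 0.67, adjusted p = 0.000311) and Hes1 (2.70 ± 0.57, adjusted p = 0.00225) rose as well. Hes5 was at 10.2, 15.4 and 108 CPM against 0, 0 and 12 CPM, so that the tumor cells of mouse 7 held the highest level and those of mouse 4 were below the normal cells of mouse 7. The sizes rest on few UMIs in normal cells. Without mouse 7 the change of Sox11 was 6.08, adjusted p = 2.22e-06. Both remaining normal sums of Hes5 were then at 0, so it was called (adjusted p = 0.00079) but its size is not given. Without one mouse at a time, Hes1 ranged from 2.45 to 4.005 and Sox6 from 4.12 to 4.97. Sox3 lost its call without mouse 4 (adjusted p = 0.0532). Lower were factors of the maturing cell. Nkx6-2 was at 48.1, 119 and 87.8 CPM against 356, 452 and 245 CPM (-2.16 ± 0.29, adjusted p = 8.29e-05), Prox1 was at 40.3, 40.2 and 34.1 CPM against 227, 293 and 102 CPM (-2.43 ± 0.28, adjusted p = 2.77e-05) and Zfp536 fell by 2.73. Myrf, the factor that switches on myelin genes, was at 124, 229 and 173 CPM against 268, 324 and 269 CPM and fell by 0.79 (adjusted p = 0.0168), and it lost its call without mouse 4 (-0.58, adjusted p = 0.269). Nkx2-2 was at 19.7, 27.4 and 31.1 CPM against 20.9, 40.9 and 5.98 CPM (-0.07 ± 0.39, adjusted p = 0.91). Without mouse 4, 4 factors were lower, and without mouse 7, 9 were.

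Mature oligodendrocyte genes were not independent of the gate, since normal cells were chosen for Mal, Mog, Ermn, Mag and Mobp, and their levels are given as a description. All 42 that passed the filter were lower in tumor cells, without overlap in any of them, at a median log2 fold change of -3.10. Without mouse 4, 38 were called, and without mouse 5, 40 were, Mbp being among those lost both times. The change of Opalin ranged from -4.29 to -5.92 without one mouse at a time. Mbp, the protein that compacts myelin, was at 2488, 2091 and 1998 CPM in tumor cells and 5399.7, 4763 and 6934 CPM in normal cells, a change of -1.40. The decrease was thus smaller for Mbp than for the late genes that follow. Opalin was at 24.4, 6.8 and 45.6 CPM against 848, 839.7 and 485 CPM, Hapln2, a matrix link protein at nodes of Ranvier, was at 1.67, 4.12 and 1.07 CPM against 261, 262 and 65.8 CPM, and Aspa, which breaks down N-acetylaspartate, was at 26.8, 14.6 and 23 CPM against 447, 666 and 311 CPM. Il33, a nuclear cytokine of mature oligodendrocytes, was at 2.09, 2.06 and 1.73 CPM against 172, 113 and 89.7 CPM. Enzymes of myelin lipids lay between these. Ugt8a, which makes galactolipids, was at 292, 282 and 311 CPM against 1689.6, 2174 and 1292 CPM and Fa2h, which hydroxylates their fatty acids, at 58.2, 96.4 and 70.2 CPM against 528, 715 and 197 CPM. In myeloid cells of the same libraries Mbp was at 110.3, 73.3 and 86.7 CPM.

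Immature neural and oncofetal genes were higher in 7 and lower in 0 of 15 tested, at a median of 0.61. Mex3a, an RNA-binding protein of progenitors, was at 58.4, 43.2 and 88.1 CPM against 7.31, 0 and 12 CPM (3.44 ± 0.48, adjusted p = 0.000105). Igf2bp2, an RNA-binding protein of fetal tissues, was at 77.6, 106 and 112 CPM against 15.7, 1.64 and 53.8 CPM (2.54 ± 0.48, adjusted p = 0.00108). Both were higher in tumor cells of each mouse. Tubb2b, a neuronal and immature tubulin, was at 344, 322 and 323 CPM against 47, 24.6 and 323 CPM (2.09 ± 0.52, adjusted p = 0.00622), with a large difference in mice 4 and 5 and none in mouse 7. Tubb3 was at 95.3, 91.9 and 189 CPM against 37.6, 19.6 and 419 CPM (0.61 ± 0.47, adjusted p = 0.327). In mouse 7, normal cells held more Tubb3 than tumor cells did, and without mouse 7 it was called higher (1.67, adjusted p = 0.000186), while the change of Tubb2b ranged from 1.42 to 3.19, that of Mex3a from 2.94 to 4.28 and that of Igf2bp2 from 1.77 to 3.17. Lin28a was at 0 in all 6 sums and Dcx reached 4.18 CPM at most, so that a regulator of embryonic cells was not detectable and a marker of migrating neurons was near the limit. After each cell was thinned to 1000 UMIs, Sox4 or Sox11 was seen in tumor cells at shares of 31.1%, 25.2% and 34.2%. Among normal cells the shares were 8.20%, 2% and 0 of 32, the last of which allows a share of up to 9.38% (counting error only). Unthinned shares were 80.2%, 92.3% and 91.6% against 18.6%, 24.0% and 28.1%. In myeloid cells, which should lack both genes, the thinned shares were 0%, 2.63% and 3.33%. The thinned shares of normal cells in mice 5 and 7 rest on 1 and 0 cells and cannot be told apart from these. Unthinned myeloid shares were 3.57%, 10.5% and 7.78%, below those of normal cells, though depth was not equal.

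Genes of cell division were higher throughout. All 22 G2 and mitosis genes (median 4.33) and 23 of 24 S phase genes (median 3.43, or 3.39 with the 3 genes at 0 in all normal sums at their bound) were higher in tumor cells, and the first list was fully called without any one mouse. Top2a, the topoisomerase that untangles chromosomes, was at 248, 241 and 392 CPM in tumor cells and 11.5, 1.64 and 5.98 CPM in normal cells (5.19 ± 0.41, adjusted p = 2e-06). Mki67, a coat protein of mitotic chromosomes, was at 111, 224 and 203 CPM against 3.13, 6.55 and 12 CPM (4.87 ± 0.36, adjusted p = 1.63e-06). The mitotic cyclin Ccnb1 was at 93.5, 62.8 and 87 CPM against 6.27, 0 and 0 CPM (4.62 ± 0.50, adjusted p = 1.75e-05). None of these sums overlapped between the sides. Without mouse 4, both remaining normal sums of Ccnb1 were at 0, and without mouse 4 the change of Top2a was 6.67, adjusted p = 4.11e-22. Rrm2, which makes deoxynucleotides, and Uhrf1, which helps to copy DNA methylation, were at 0 in all normal sums, and at the limit of 3 counts over the group they were each at least 34.6-fold higher in tumor cells. Mcm6, part of the replicative helicase, was at 97.5, 72.1 and 110.0 CPM against 3.13, 3.27 and 23.9 CPM (3.96 ± 0.45, adjusted p = 2.33e-05), a change that ranged from 3.26 to 4.74 without one mouse at a time. The exception was Pcna, the sliding clamp of replication and repair, at 176, 127 and 193 CPM against 108, 86.8 and 132 CPM (0.58 ± 0.23, adjusted p = 0.0583), which was called without mouse 7 (0.61, adjusted p = 0.0429).

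Shares of cells with these RNAs were also higher at equal depth. After thinning to 1000 UMIs, at least 1 G2 or mitosis gene was seen in tumor cells at shares of 73.4%, 65.8% and 61.3% (95% exact binomial interval in mouse 4 from 69.3% to 77.2%) and in normal cells at 23%, 16% and 21.9% (in mouse 4 from 17.1% to 29.7%). Unthinned shares were 96.1%, 98.2% and 94.1% against 48.1%, 62.0% and 53.1%. Myeloid cells, which can divide in tumors, had thinned shares of 57.1%, 28.9% and 32.2%. The shares of normal cells lay below these and are not read as division. In the tumor cells of mouse 6 the thinned share was 66.5%. To ask how much of the comparison rests on dividing cells, tumor cells with no UMI of 8 cycle genes were compared separately (86, 31 and 458 cells), an alternative added after the data had been seen. Then 1353 genes (18.0%) were higher and 1398 (18.6%) lower of 7518 tested, and 1295 and 1361 of these were also called with all tumor cells.

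Regulators of the cell cycle were higher in 7 and lower in 5 of 17 tested. Ccnd1 (cyclin D1), which starts the G1 to S step, was at 91.2, 96 and 27.9 CPM in tumor cells and 5.22, 0 and 0 CPM in normal cells (4.92 ± 0.53, adjusted p = 1.72e-05). Its partner Cdk4 was at 489, 302 and 267 CPM against 95, 75.3 and 95.7 CPM (1.98 ± 0.26, adjusted p = 7.7e-05), and the transcription factor E2f3 rose by 1.84. Among inhibitors of the cycle, Cdkn1b (p27), which holds oligodendrocytes out of the cycle, was at 49.5, 46.1 and 37.2 CPM against 155, 98.2 and 77.8 CPM (-1.34 ± 0.25, adjusted p = 0.000811), Cdkn2d fell by 1.47, and the retinoblastoma genes Rb1 and Rbl2 fell by 1.35 and 1.55. Cdkn2a, which encodes p16 and p19Arf, was higher at 296, 221 and 329.6 CPM against 57.4, 6.55 and 275 CPM (2.10 ± 0.54, adjusted p = 0.00721). Its level in the normal cells of mouse 7 was close to the tumor cells of that mouse, and its change ranged from 1.33 to 3.09 without one mouse at a time. The change of Ccnd1 was 4.19 without mouse 5 and 4.87 without mouse 7. Without mouse 4 both remaining normal sums of Ccnd1 were at 0, so no size is given. Cdkn1c (p57) ranged widely between tumors, at 0.139, 511 and 38 CPM in tumor cells and 33.4, 16.4 and 5.98 CPM in normal cells (0.85 ± 1.63, adjusted p = 0.711), and stood at 129 CPM in the tumor cells of mouse 6. It was called higher without mouse 4 (4.68, adjusted p = 1.87e-13) and lower without mouse 5 (-2.39, adjusted p = 0.000626). Rb1 lost its call without mouse 4 (adjusted p = 0.107), and 3 regulators were lower then.

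Genes of ribosome production were higher nearly throughout. Of 38 ribosome biogenesis genes, 37 were higher and 0 lower (median 1.74), and 36 did not overlap between the sides. Among all genes called higher, 2145 of 2366 did not overlap either. Npm1 (nucleophosmin), a nucleolar chaperone of ribosome assembly, was at 3872, 3784 and 4471 CPM in tumor cells and 469, 345 and 1101 CPM in normal cells (2.81 ± 0.37, adjusted p = 6.99e-05). Ncl (nucleolin) was at 2446, 2655 and 2839.7 CPM against 535, 430.5 and 772 CPM (2.20 ± 0.31, adjusted p = 0.000115). In myeloid cells of these libraries Ncl was at 551, 702 and 766 CPM, near the normal oligodendrocytes. Box C/D and H/ACA proteins, which guide rRNA modification, rose by 2.89 (Nop58), 3.08 (Nhp2) and 2.65 (Dkc1), the change of Nhp2 ranging from 2.55 to 3.72 without one mouse at a time. Rrp12 was at 7.67, 24.1 and 14.8 CPM against 8.35, 13.1 and 0 CPM and did not pass the test (0.62 ± 0.53, adjusted p = 0.377). In tumor cells with no UMI of the 8 cycle genes 35 of 36 tested were higher, and without mouse 4 or mouse 5 there were 33 and 28 of 38. With every cell thinned to 1000 UMIs, 25 of 28 tested were higher.

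MYC proteins and their partner Max are known to bind the letters CACGTG, the E-box, and promoters of the higher ribosome genes are shown for these letters. Promoter windows of RefSeq (GRCm38.p6, from 250 bases before to 50 after the start) were found for 33 of the 37 higher genes, and 7 of their 35 windows (20%) held CACGTG, against 7.15% of all 32851 windows and 10.2% of those of all genes tested. Since CACGTG reads the same on both strands, 1 search covers both. Stretches of 30 bases follow for the 4 ribosome genes whose window holds 12 bases on each side of the E-box, since MYC targets are known to carry it, and for Cdk4 and Ldha, higher genes of the cell cycle and of lactate production. Each is written 5′ to 3′ on the gene's strand, with the E-box in capitals.
Nop2 (chr6:125131811-125131840, plus strand): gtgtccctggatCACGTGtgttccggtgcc
Pes1 (chr11:3963965-3963994, plus strand): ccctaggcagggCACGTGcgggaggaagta
Wdr43 (chr17:71616220-71616249, plus strand): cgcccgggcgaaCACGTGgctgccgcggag
Nle1 (chr11:82908355-82908384, minus strand): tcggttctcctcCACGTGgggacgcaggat
Cdk4 (chr10:127063351-127063380, plus strand): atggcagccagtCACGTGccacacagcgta
Ldha (chr7:46845647-46845676, plus strand): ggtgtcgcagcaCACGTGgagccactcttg
The Cdk4 window held 4 copies and the Ldha window 2. Among genes called higher 12.1% of windows held the letters, among those lower 9.74% and among those not called 9.66%. The promoters of mature oligodendrocyte genes held them in 2 of 46 windows (4.35%) and those of ribosomal protein genes in 8 of 68 (11.8%). They were held by 5 of 10 windows (50%) of polyamine genes called higher and by 4 of 12 (33.3%) of cholesterol synthesis genes called lower. Windows of G2 and mitosis genes called higher held them in 0 of 18. In the list of Cdk4, 2 of 8 windows (25%) of cell cycle regulators called higher held them. In the list of Ldha, 1 of 12 (8.33%) of glycolysis and lactate genes called higher did. These shares are descriptions, and no binding was measured.

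The 4 ribosome genes with printed promoters rose together with the others. Nop2, an rRNA methyltransferase, was at 45.8, 62.6 and 48 CPM in tumor cells and 14.6, 6.55 and 12 CPM in normal cells (2.17 ± 0.38, adjusted p = 0.00061), and Wdr43, a factor of the small subunit, was at 240.2, 268 and 224 CPM against 53.3, 68.7 and 59.8 CPM (1.996 ± 0.25, adjusted p = 4.58e-05). For both genes the sides did not overlap, and without one mouse at a time the change of Nop2 ranged from 1.71 to 2.82. Pes1, of the large subunit, was at 85.4, 94.7 and 89.1 CPM against 45.9, 14.7 and 47.9 CPM (1.38 ± 0.34, adjusted p = 0.00535), and Nle1, which also acts in large subunit assembly, was at 20.9, 24.1 and 23 CPM against 8.35, 9.82 and 5.98 CPM (1.34 ± 0.42, adjusted p = 0.0218). Nle1 lost its call without mouse 4 and without mouse 5 (adjusted p = 0.145 and 0.0998), and Pes1 without mouse 5 (adjusted p = 0.0743).

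The proteins of the ribosome itself and translation factors followed. All 77 ribosomal protein genes tested were higher without overlap, by 1.16 to 2.19 (median 1.58). The median was 1.88 and 2.06 in mice 4 and 5 but 0.78 in mouse 7, and 29, 44 and 77 of the 77 were called without mice 4, 5 and 7. With cells thinned to 1000 UMIs all 77 were higher. Pseudogenes share sequence with many of these genes, and with Npm1, Eif5a, Fth1 and Gapdh, which leaves single values uncertain. Of 21 translation factor genes 15 were higher and 0 lower (median 0.99). Eif4ebp1, an inhibitor of cap-dependent translation, was at 146, 88.4 and 192 CPM in tumor cells and 5.22, 3.27 and 77.8 CPM in normal cells (3.27 ± 0.52, adjusted p = 0.0003), Eif5a was at 1628, 1371 and 1567 CPM against 361, 265 and 712 CPM (1.87 ± 0.31, adjusted p = 0.000422) and Eif1a rose by 2.61. Without mouse 4 or mouse 5, 10 and 9 of the 21 were higher, and the change of Eif4ebp1 ranged from 2.48 to 4.77 without one mouse at a time.

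Nucleotide and one-carbon genes were higher in 19 and lower in 1 of 26 tested (median 1.69). Cad, the first enzyme of pyrimidine synthesis, was at 49.5, 56.8 and 54.3 CPM in tumor cells and 4.18, 13.1 and 23.9 CPM in normal cells (2.37 ± 0.41, adjusted p = 0.000563). Impdh2, the rate-limiting step to guanine nucleotides, was at 252, 239 and 204 CPM against 51.2, 70.4 and 95.7 CPM (1.75 ± 0.27, adjusted p = 0.000268). The folate enzymes Shmt1 and Mthfd1l rose by 2.95 and 3.16. Serine synthesis did not follow. Phgdh was at 426, 369.7 and 460.1 CPM against 367, 332 and 311 CPM (0.27 ± 0.24, adjusted p = 0.397) and Psat1 was lower, at 132, 259 and 209.8 CPM against 288, 399 and 281 CPM (-0.77 ± 0.24, adjusted p = 0.0209). Psat1 lost its call without mouse 4 and without mouse 5 (adjusted p = 0.318 and 0.073). The change of Cad was 1.74, adjusted p = 0.0081 without mouse 4.

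Of the polyamine genes, 5 were higher and 2 lower of 13 tested, and the higher ones were 3 synthesis enzymes, the translation factor Eif5a, which is modified from spermidine, and Dohh, which completes that modification. Odc1, the rate-limiting enzyme and a textbook MYC target, was at 388, 369 and 263 CPM in tumor cells and 32.4, 32.7 and 53.8 CPM in normal cells (3.22 ± 0.31, adjusted p = 6.72e-06). Srm and Sms, which make spermidine and spermine, rose by 1.99 and 3.52. Amd1, which supplies the aminopropyl groups, fell by 0.89 (adjusted p = 0.00775), and Sat1, which breaks polyamines down, fell by 0.75 (adjusted p = 0.0411). Dohh lost its call without mouse 4 and without mouse 5 (adjusted p = 0.0711 and 0.188). Amd1 has a near-identical copy, Amd2, so its value is uncertain, and it lost its call without mouse 5 (adjusted p = 0.0783). Sat1 lost its call without mouse 5 and without mouse 7 (adjusted p = 0.197 and 0.241).

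Glycolysis genes rose at selected steps, 7 higher and 1 lower of 18 tested (median 0.67). Ldha, which makes lactate, was at 350.1, 500.0 and 354 CPM in tumor cells and 35.5, 22.9 and 71.8 CPM in normal cells (3.38 ± 0.35, adjusted p = 1.4e-05), and Hk2, the inducible hexokinase, was at 52.9, 68.8 and 50.3 CPM against 2.09, 11.5 and 0 CPM (3.47 ± 0.47, adjusted p = 9.12e-05). The change of Hk2 ranged from 2.94 to 4.87 without one mouse at a time. Eno1 and Pkm rose by 2.39 and 1.72. The glucose transporter Slc2a1 was lower at 19, 21.8 and 18.1 CPM against 78.3, 111 and 35.9 CPM (adjusted p = 0.000179). Gapdh was at 1014, 688 and 679 CPM against 705, 566 and 509 CPM (0.37 ± 0.25, adjusted p = 0.26).

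The mouse's own MYC genes were hardly detected. Mycn was at 0.418, 0.412 and 0.918 CPM in tumor cells and 2.09, 1.64 and 12 CPM in normal cells, Myc was at 3.21, 0.824 and 1.62 CPM against 1.04, 0 and 5.98 CPM, and both were too low to be tested. Of 11 network genes tested, 2 were higher (18.2%) and 1 was lower (9.09%), not above the background of 22.9% and 19.4%. Mycl was at 8.93, 12.6 and 10.9 CPM against 0, 1.64 and 5.98 CPM (3.04 ± 0.92, adjusted p = 0.0177), the repressor Mxd3, which is made in dividing cells, was at 0 in all normal sums and at least 8.01-fold higher, and Mxd1, made in differentiating cells, fell by 1.64 (adjusted p = 0.0138). Without mouse 4 or mouse 5, 1 network gene was higher and Mycl (adjusted p = 0.172 and 0.0717) and Mxd1 (adjusted p = 0.0575 and 0.264) lost their calls. Max was at 69.2, 57.7 and 62.5 CPM against 50.1, 27.8 and 59.8 CPM (0.52 ± 0.27, adjusted p = 0.142).

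Most targets of p53 did not pass the test, with 1 higher and 5 lower of 20 tested and a median of -0.18. The share of lower genes was near the background (25% against 19.4%), and that of higher genes was below it (5% against 22.9%). Cdkn1a (p21), the classic target, was at 2.23, 1.03 and 0.882 CPM in tumor cells and 18.8, 6.55 and 5.98 CPM in normal cells (-2.93 ± 0.73, adjusted p = 0.0059), each value being low. It lost its call without mouse 4 (adjusted p = 0.177), when 2 members were lower in all, and without mouse 5 there were 3. Without cells of either side holding vascular or immune UMIs, 2 of 19 tested were lower. Mdm2, which degrades p53, was at 51.1, 40.4 and 38 CPM against 115, 121 and 65.8 CPM (-1.28 ± 0.25, adjusted p = 0.00125). Phlda3 was at 78.7, 90.0 and 71.4 CPM against 381, 347 and 293 CPM (-2.12 ± 0.23, adjusted p = 1.73e-05), without overlap. Bax was at 140.2, 247 and 163 CPM against 128, 138 and 132 CPM (0.40 ± 0.24, adjusted p = 0.209). Trp53 itself was at 37.2, 28 and 69.3 CPM against 23, 24.6 and 47.9 CPM (0.45 ± 0.29, adjusted p = 0.237), but the last exon lies outside the floxed part, so a 3′ count of Trp53 checks nothing about the deletion. Among apoptosis genes 3 were higher and 3 lower of 12 (25% each), near the background of 22.9% and 19.4%. Bcl2l1 (BCL-XL), which keeps mature oligodendrocytes alive, was at 14.1, 22.2 and 19.9 CPM against 103, 98.2 and 65.8 CPM (-2.36 ± 0.29, adjusted p = 4.23e-05), and the activator Bid was at 17.6, 17.9 and 13.4 CPM against 1.04, 0 and 0 CPM (adjusted p = 0.000773), with 1 UMI in all normal cells together. Without mouse 4, 1 apoptosis gene was higher and 2 were lower, and without mouse 5, 2 were lower.

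Cholesterol synthesis, which myelination needs in bulk, was lower in 12 and higher in 0 of 23 genes tested (median -0.78). Hmgcs1, at the entry of the pathway, was at 102, 76.6 and 82.7 CPM in tumor cells and 582, 479.6 and 401 CPM in normal cells (-2.52 ± 0.24, adjusted p = 6.72e-06). Msmo1 was at 48, 49 and 42.6 CPM against 165, 221 and 138 CPM (-1.93 ± 0.24, adjusted p = 4.23e-05), and Cyp51, Sc5d and the sensor Insig1 fell by 1.74, 2.11 and 1.92. Of 9 iron genes tested, 1 was higher and 3 were lower. The iron store Fth1, abundant in oligodendrocytes, was at 1798, 2649.9 and 2206 CPM against 16387, 14689 and 9806 CPM (-2.64 ± 0.42, adjusted p = 0.0003), and the uptake receptor Tfrc was at 288, 233 and 286 CPM against 64.7, 42.6 and 156 CPM (1.83 ± 0.30, adjusted p = 0.000391). No value of either gene overlapped between the sides.

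Receptors were lower in 6 and higher in 2 of 14 tested. Kit was at 6.14, 3.09 and 10.9 CPM in tumor cells and 85.6, 138 and 65.8 CPM in normal cells (-3.996 ± 0.43, adjusted p = 1.67e-05), and Fgfr2, the FGF receptor of myelinating cells, was at 20.9, 57.9 and 37.5 CPM against 226, 301 and 89.7 CPM (-2.52 ± 0.35, adjusted p = 0.000107). The lipid receptors Lpar1 and S1pr5 fell by 3.56 and 3.93, and the neuregulin receptors Erbb3 and Erbb4 by 1.08 and 1.66. Notch1 was higher at 79, 70.4 and 74.8 CPM against 30.3, 8.18 and 59.8 CPM (1.49 ± 0.38, adjusted p = 0.00687). Without mouse 5, Notch1 and Erbb3 lost their calls (adjusted p = 0.0569 and 0.133) and the change of Kit was -3.30, adjusted p = 1.07e-11. The change of Lpar1 ranged from -2.88 to -4.20 without one mouse at a time. Egfr, Met and Erbb2 reached at most 3.71 CPM in any sum and were not tested. Of 9 MHC class I genes 3 were lower and 1 was higher. H2-D1 was at 46.5, 16.7 and 38 CPM against 99.2, 44.2 and 174 CPM (-1.56 ± 0.27, adjusted p = 0.000509), B2m fell by 0.73 (adjusted p = 0.0338), and the immunoproteasome gene Psmb10 rose by 1.88. B2m lost its call without mouse 4 and without mouse 7 (adjusted p = 0.126 and 0.158), and 1 member was lower without mouse 4. Without cells of either side holding vascular or immune UMIs, 1 of 7 MHC class I genes tested was lower and the median went from -0.73 to -0.01. Without normal cells holding at least 2 neuron UMIs it was 0.02, with 3 of 9 genes lower.

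Chromatin genes were higher in 16 and lower in 2 of 21 tested (median 1.22). Ezh2, the methylase of the Polycomb complex, was at 207, 194 and 261 CPM in tumor cells and 43.9, 34.4 and 83.8 CPM in normal cells (2.13 ± 0.26, adjusted p = 4.73e-05). The high-mobility-group genes Hmgb2 and Hmgn1 rose by 3.88 and 2.70 and the histone variant H2az1 by 2.31. The DNA methylases split, with Dnmt1 at 76.2, 75 and 118 CPM against 30.3, 31.1 and 53.8 CPM (1.22 ± 0.25, adjusted p = 0.00191) and Dnmt3a at 57.8, 63.8 and 77.2 CPM against 187, 262 and 221 CPM (-1.80 ± 0.23, adjusted p = 6.43e-05). Hdac11, a deacetylase of mature oligodendrocytes, fell by 2.93. Of 12 topoisomerase and drug efflux genes 6 were higher and 0 lower, but only 1 was higher without mouse 4. Top1, the target of camptothecins, was at 594, 524 and 451 CPM against 307, 278 and 215 CPM (0.94 ± 0.24, adjusted p = 0.00696), and Abcg2 was at 39.5, 52.7 and 35.2 CPM against 35.5, 49.1 and 29.9 CPM (0.11 ± 0.27, adjusted p = 0.782). Top1 lost its call without mouse 4 (adjusted p = 0.0699).

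Genes of dissociation and stress, a sign of how cells were handled, were lower in 5 and higher in 1 of 14 tested. Hspa1b was at 3.21, 2.27 and 10.1 CPM in tumor cells and 27.1, 34.4 and 41.9 CPM in normal cells (-3.04 ± 0.46, adjusted p = 0.000218), Fos was at 67.2, 52.5 and 191 CPM against 116, 93.3 and 604 CPM (-1.13 ± 0.25, adjusted p = 0.00267) and Fosb rose by 1.30. Their part in other results was not tested.

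Among genes of at least 50 CPM in every sum of the higher side that moved the same way in each mouse, the largest rises included genes outside the cycle. Col2a1, a fibrillar collagen, was at 151, 211 and 209 CPM in tumor cells and 6.27, 1.64 and 12 CPM in normal cells (5.04 ± 0.41, adjusted p = 2.75e-06). Suclg2, a mitochondrial enzyme, was at 88.9, 75.6 and 74.1 CPM against 4.18, 1.64 and 0 CPM (4.83 ± 0.45, adjusted p = 5.71e-06). Among the others were Ptprz1, Vcan, Top2a and Mki67, given above, and Pclaf, H2ac8, Hmmr, H1f5, Cenpw, Cdca7, Cenpa and Knstrn, genes of replication, histones and mitosis with rises of 5.07 to 6.004. The 15 largest falls were Hapln2, Il33, Opalin and Tmem125 of the mature list, and 11 others. Normal cells were chosen for late myelin genes, so these falls are not independent of the gate and are given as a description. Spock1 was at 1.12, 1.44 and 0.918 CPM against 91.9, 139 and 71.8 CPM (-6.42 ± 0.33). Sez6l2 was at 3.35, 11.9 and 1.29 CPM against 376, 679 and 126 CPM (-6.39 ± 0.32). Pmp22, a myelin protein best known from peripheral nerve, was at 1.53, 7 and 4.74 CPM against 277, 308 and 65.8 CPM (-5.61 ± 0.52). The growth factor Fgf1 fell by 5.44, and Serpinb1a, Ninj2, Gng11, Tmod1, Slco3a1, Nrbp2 and B3galt5 fell by 5.002 to 5.53. Without one mouse at a time the rise of Pclaf ranged from 4.80 to 7.16, that of Suclg2 from 4.62 to 5.84, that of Col2a1 from 4.43 to 5.63, the fall of Pmp22 from -4.77 to -6.32 and that of Fgf1 from -4.90 to -6.52. The rises of H1f5 and Cenpw were 6.91 and 6.59 without mouse 4, and the falls of B3galt5 and Slco3a1 were -5.96 and -5.73 without mouse 7. The fitted values of Hmmr, Cdca7 and Cenpa were 11.77 to 13.10 without mouse 4. With almost no UMIs left in normal cells, these 3 are not read as sizes.

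To compare cells at a more similar stage, tumor cells were split by the Mal, Mog, Ermn, Mag and Mobp part of the normal gate, an alternative added after the data had been seen. In mice 4, 5 and 7, 41, 62 and 326 tumor cells met it, with median depths of 20269, 26283 and 12634 UMIs. Compared with normal cells, they had 1304 genes (15.9%) higher and 1259 (15.3%) lower of 8210 tested, and 1284 and 1247 of these were also called with all tumor cells. Their Aspa level was 120.0, 36.5 and 59.4 CPM, between 447, 666 and 311 CPM in normal cells and 14.5, 4.25 and 15.6 CPM in the other tumor cells. Of the 42 mature oligodendrocyte genes, 38 lay between the other tumor cells and normal cells in this way in all 3 mice. The position was not particular to them. It was also held by 21 of 22 G2 and mitosis genes and 24 of 38 ribosome biogenesis genes. Among S phase genes 9 of 24 held it, and among cholesterol synthesis genes 9 of 23. Because the split was made on myelin genes, the position of the mature genes is not independent of it. The part of doublets and of free RNA in these positions was not tested. Mbp was at 5679, 3029 and 3784 CPM and did not pass the test against normal cells (-0.54 ± 0.37, adjusted p = 0.302). G2 and mitosis genes were still higher in 21 of 22, ribosome biogenesis genes in 34 of 38 and ribosomal protein genes in 76 of 77. Top2a was at 98.4, 231 and 323 CPM in the tumor cells that met the part and 267, 245 and 405 CPM in the others, and Npm1 was at 2693, 3555 and 3575 CPM in the first and 4027, 3892 and 4653 CPM in the second. Sox11 was at 2.4, 19.9 and 21.3 CPM in the first and 55.9, 47.7 and 111 CPM in the second, and did not pass the test against normal cells (1.90 ± 0.92, adjusted p = 0.149). Cholesterol synthesis genes were lower in 8 of 23 in this comparison.

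**Figure D4:**
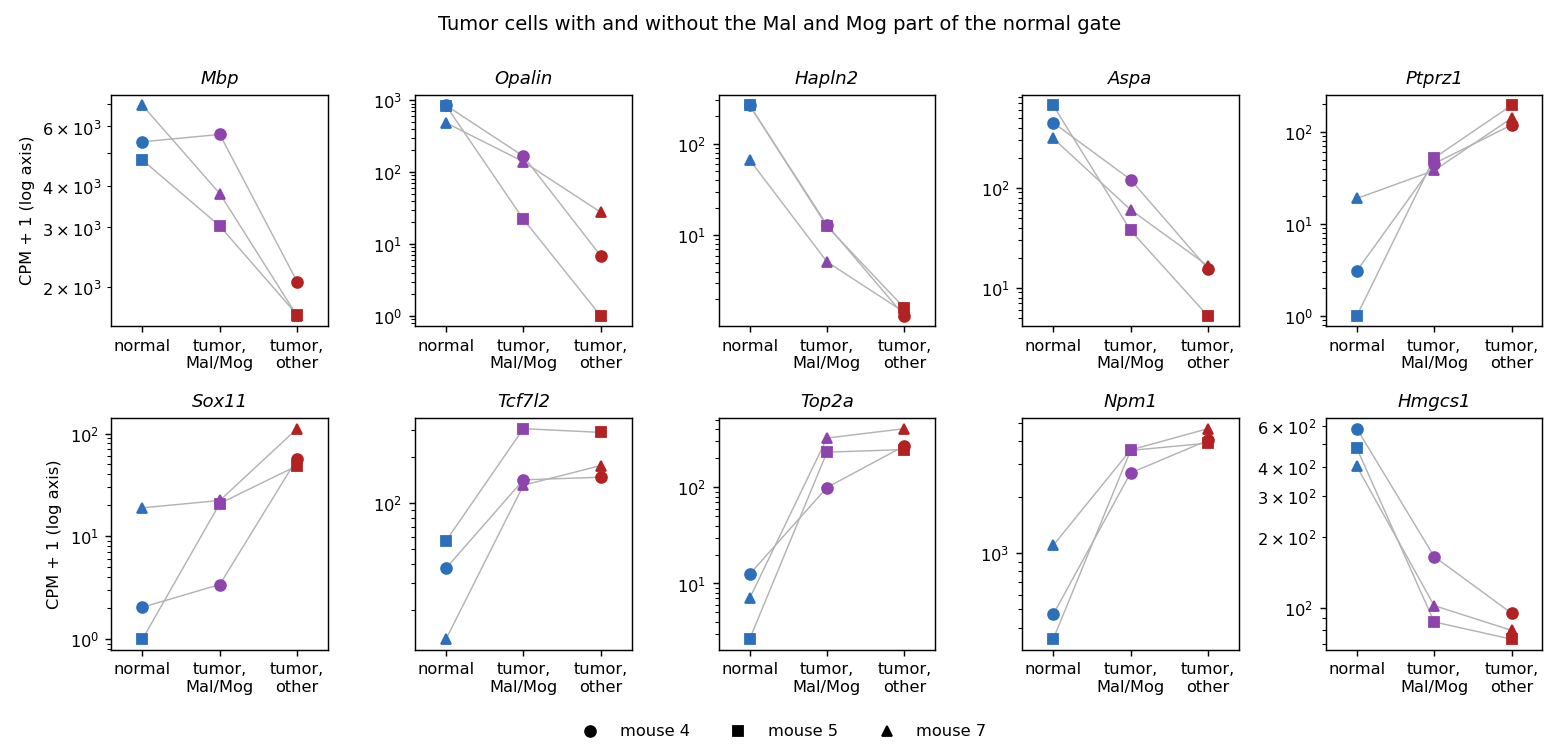
CPM + 1 on log axes in normal oligodendrocytes, in tumor cells that met the Mal and Mog part of the normal gate and in the other tumor cells of mice 4, 5 and 7. Opalin, Hapln2 and Aspa step down from left to right in each mouse, whereas Top2a, Npm1 and Hmgcs1 differ mainly between normal and tumor cells.

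Fold changes in mouse 7 were set against those in mice 4 and 5. In a model with a term for the difference of mouse 7 (70 days) from mice 4 and 5 (43 days), 40 of 10316 genes were called, 17 (0.165%) with a larger and 23 (0.223%) with a smaller fold change in mouse 7. Mouse 7 has no replicate, so the spread comes from mice 4 and 5 alone and mouse 7 is assumed to vary like them. Age and mouse cannot be told apart. Tubb2b (-3.16 ± 0.45, adjusted p = 0.00913), Tubb3 (-2.79 ± 0.46, adjusted p = 0.0208) and Eif4ebp1 (-3.44 ± 0.68, adjusted p = 0.0389) had smaller fold changes in mouse 7, as had 5 ribosomal protein genes. For Tubb2b and Eif4ebp1 the normal cells differed more between mice than the tumor cells did. In mouse 7 they held 323 CPM of Tubb2b against 47.0 and 24.6 CPM in mice 4 and 5, and 77.8 CPM of Eif4ebp1 against 5.22 and 3.27 CPM. The tumor cells of the 3 mice ranged from 322 to 344 CPM for Tubb2b and from 88.4 to 192 CPM for Eif4ebp1.

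Genes near Rosa26, the site of the transgene, stood apart and are given as a description, chosen after their values had been seen and with the transgene being part of the gate. Of 26 genes of at least 50 CPM on either side within 3 Mb of Gt(ROSA)26Sor (chr6:113067428-113077333 of GRCm38), 23 were called higher and 1 lower, and the median log2 ratio was 2.77 in mouse 4, 3.68 in mouse 5 and 0.24 in mouse 7. At least 4-fold higher were 19, 24 and 5 of them. Log2 ratios in mice 4, 5 and 7 were 3.96, 4.79 and 3.41 for Thumpd3 and 2.80, 3.87 and 2.67 for Setd5, its close neighbours. Mouse 7 kept high ratios for Rad18 at -370.7 kb, to the left of the locus (1.51, 5.39 and 5.06). To the right it kept one for Lhfpl4 at 90.8 kb (3.44, 4.99 and 2.23). It had lower ratios for Brpf1 at 229.8 kb (2.79, 4.35 and 1.14) and Arpc4 at 300.8 kb (3.02, 4.25 and 0.05), both nearer to the locus than Rad18. In mice 4 and 5 the high ratios went on to Vgll4 (2.99, 2.64 and 0.25) 1783 kb away. Mouse 4 lacked the rise of Srgap3 on the other side (0.44, 2.98 and 2.04). In mouse 7, 4 of the genes had no UMI in the normal sum and have a ratio at the limit of 3 UMIs or, where the tumor level was below that limit, none. One of the ribosomal protein genes, Rpl32, lies in this window.

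**Figure D5:**
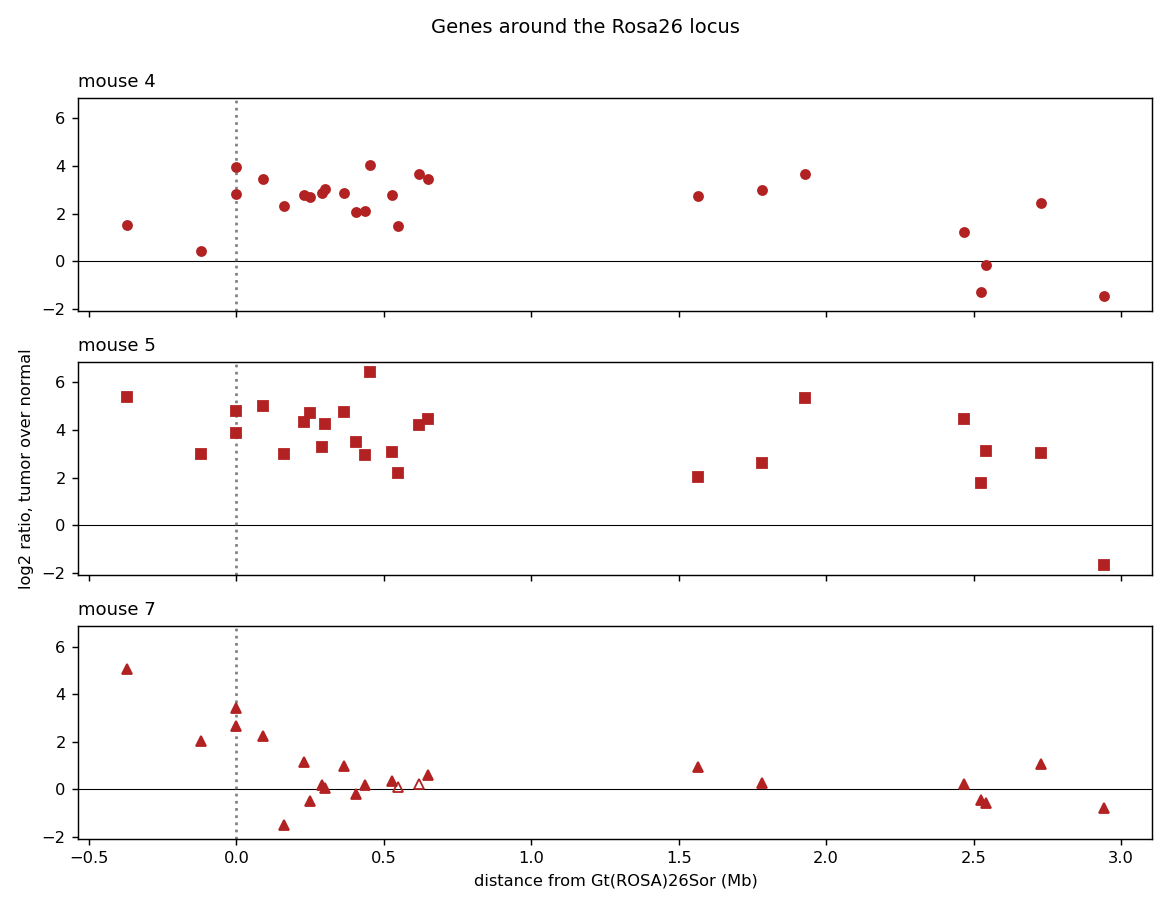
Log2 ratio of tumor over normal cells in mice 4, 5 and 7 (panels) for genes of at least 50 CPM, by distance from Gt(ROSA)26Sor in Mb (dotted line), with open symbols for genes at 0 in the normal sum, drawn at the bound from 3 UMIs where the tumor level exceeds it. High ratios reach about 2 Mb to the right in mouse 4 and farther in mouse 5. In mouse 7, ratios of at least 4-fold lie between Rad18 at -370.7 kb and Lhfpl4 at 90.8 kb.

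Whole chromosomes differed little by comparison. Over 4356 genes of at least 50 CPM on either side, the median log2 ratio was 0.02, 0.05 and 0.04 in mice 4, 5 and 7. In mouse 4 it was -0.65 over 243 genes of chromosome 7 and -0.58 over 138 genes of chromosome 19, while mice 5 and 7 had 0.07 and -0.14 on chromosome 7 and -0.23 and 0.10 on chromosome 19. On chromosome 15 it was 0.38, 0.36 and 0.23, and on chromosome 13 it was 0.36, 0.30 and 0.16. Copy number of these 4 tumors was not analysed here, and the medians were not tested.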

How the data were processed

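Single-cell RNA of 4 tumors was captured with the 10x Genomics 3′ kit. The authors aligned the reads to mm10 with the FLUC and human MYCN sequences added and counted UMIs per gene and cell with Cell Ranger 6.0.2, and the deposited matrices hold these raw UMI counts for 21861 features. The authors then filtered and clustered cells and tested them with a cell-level model, which was not used here because cells of one mouse are not replicates.

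Cells were chosen by the gates of the report. Doublets were limited only by the cap of 40000 UMIs, no doublet caller was run, and cells of both sides with at least 2 UMIs of vascular or immune markers were left out as an alternative. Counts of each side were summed within each mouse that had at least 20 normal cells (mice 4, 5 and 7). The 16 gate genes stayed in the library sizes and out of the tests. The sums were fitted with edgeR 4.0.16 in R 4.3.3 (filterByExpr, TMM normalization, quasi-likelihood F test, mouse as a block), with Benjamini-Hochberg adjustment over 10316 genes and a limit of 0.05. The standard error is the absolute log2 fold change over the square root of F. Both sides of a mouse come from the same animal and library, so the mouse pairs them, and within the pairs the deviations from the group means correlated at 0.0700, 0.181 and 0.248 over 10316 genes for mice 4, 5 and 7. DESeq2 1.42.0 served as an alternative. The test of mouse 7 against mice 4 and 5 added an interaction term, with mouse 7 as 1 unreplicated animal. The fitting code was tested on simulated data. A gene at 0 on one side is given as a bound at 3 counts. P-values rest on the spread between 3 animals of 2 ages, with 2 residual degrees of freedom per gene. The test adds a spread shared over all genes, worth 11 degrees of freedom. Fits without one mouse have fewer of their own, so a smaller p-value there is not stronger evidence.

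Gene lists and the gates were chosen with earlier results of these data known. Named genes are members of these lists, plus the 15 largest rises and 15 largest falls among called genes with the same sign in each mouse and at least 50 CPM in every sum of the higher side, and the genes around Rosa26, chosen after their values were seen. Tables and plots were made with Python 3.11.15, numpy 2.4.6, scipy 1.17.1, pandas 2.3.3 and matplotlib 3.10.9. Mice of other ages were not analysed here, and some genes are not reported here.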

Additional observations from a re-analysis of the deposited data

Results flagged for a closer look

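The difference between tumor and normal cells was compared between mouse 7 (70 days) and mice 4 and 5 (43 days), and 6 of the genes named above were called. Mouse 7 has no replicate and is assumed to vary like mice 4 and 5, which alone give the spread. In log2 units, the fold change in mouse 7 minus that in mice 4 and 5 was -3.16 ± 0.45, adjusted p = 0.00913 for Tubb2b, -2.79 ± 0.46, adjusted p = 0.0208 for Tubb3 and -3.44 ± 0.68, adjusted p = 0.0389 for Eif4ebp1. It was -1.67 ± 0.32, adjusted p = 0.0376 for Rpl32, -3.53 ± 0.59, adjusted p = 0.0208 for Arpc4 and -2.58 ± 0.47, adjusted p = 0.0322 for Vgll4, all 3 of which lie within 3 Mb of Rosa26 (edgeR quasi-likelihood test, interaction term, adjusted over 10316 genes). The genes around Rosa26 are not independent of the gates. Mouse 7 is the single animal of its age in the comparison and its normal side held the fewest cells (32).

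RNA of 4 Y chromosome genes, outside every comparison, summed to 119.8 CPM in the tumor cells and 211 CPM in the normal cells of mouse 4, which is labelled female, against 0.206 and 0 CPM in mouse 5, labelled male. The tumor cells of mouse 6 (labelled male) held 122 CPM and those of mouse 7 (labelled female) held 0 CPM.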

How the results depend on the processing

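Against 2366 genes higher and 2006 lower, both counts stayed within 1.5 times under no replicate block (2301 and 1944), DESeq2 size factors (2402 and 1996), the DESeq2 Wald test (1881 and 1690), no filter on low counts, equal cell numbers, at least 5 reporter UMIs, a mitochondrial limit of 10% and removal of cells with stromal UMIs. Leaving out one mouse gave 1375 to 2646 higher and 1224 to 2268 lower genes. Counts fell to 797 and 810 of 3807 genes tested with cells thinned to 1000 UMIs and to 996 and 1095 of 5574 with cells of at most 10000 UMIs, where fewer genes could be tested. A stricter alternative kept tumor cells with no UMI of any G2 and mitosis gene and fewer than 2 UMIs of S phase genes. These cells (10 in mouse 4, 0 in mouse 5 and 30 in mouse 7) left 2 mice and 3350 genes. Of these genes edgeR called 0 higher and 0 lower, with 189 higher and 225 lower at an unadjusted p under 0.05. Of the alternatives added after seeing the data, tumor cells with no UMI of 8 cycle genes gave 1353 and 1398. Tumor cells that met the Mal and Mog part gave 1304 and 1259. The other tumor cells (2363 and 2043), normal cells with fewer than 2 neuron UMIs (2359 and 2000) and cells of at least 3000 UMIs (2234 and 1852) stayed within 1.5 times. In each of these settings 0 genes were called in the opposite direction.

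Of 154 named genes that were tested, 140 were called, and 38 of these kept their call in every alternative that tested them. Tumor cells with no G2 and mitosis UMI and few S phase UMIs gave 0 calls, so a called gene tested there could not keep its call. In that alternative 92 named genes lost their call, and the 38 were not tested in it. The count of 38 thus depends on which genes that alternative could test. Without the replicate block, 7 named genes lost their call, 0 gained one, and the pairing changed no direction. The fold change of Cdkn1c ranged from -2.39 without mouse 5 to 4.68 without mouse 4, against 0.85 with all mice. That of Fos was 0.16 in tumor cells with no G2 and mitosis UMI and few S phase UMIs (adjusted p = 0.902), and the cause was not tested. Including all mice with at least 1 normal cell gave the same 3 mice and was not run again. Depth limits the normal side of mouse 7, where 3 UMIs are worth 17.9 CPM.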
